A study of Vicia sativa with 8 samples.

Results

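The phenylpropanoid and lignin unigenes of common vetch (Vicia sativa, cultivar Lanjian 3) were chosen by annotation text, with earlier results of these data known. A unigene, which is an assembled transcript sequence that may be a whole transcript or a fragment, was taken when the description of its best protein database match (nr) named an enzyme of the route, among them phenylalanine ammonia-lyase, cinnamate 4-hydroxylase, cinnamoyl-CoA, cinnamyl alcohol, coumarate, caffeoyl-CoA, ferulate 5-hydroxylase and laccase. This gave 161 members of 71553 unigenes with reads, of which 46414 had an nr match. RNA was sequenced from 8 organs with 1 library each. Sepals, dorsal petals (the standard), lateral petals (the wings), ventral petals (the keel), stamens and carpels came from flowers at stage 12 of plants about 45 days old, and leaves and roots came from 2-week-old seedlings. All plants were of the same cultivar, with no treatment named, and grown with 16 h of light and 8 h of dark at 22 °C, and the flower material was pooled from many flowers. Organ and plant age therefore cannot be told apart between the floral organs and the seedling organs, and no value below has a replicate or a test.

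Phenylpropanoids are made from phenylalanine. PAL (phenylalanine ammonia-lyase) removes the amino group, C4H (cinnamate 4-hydroxylase) hydroxylates the ring and 4CL (4-coumarate:CoA ligase) activates the acid, at which point the route divides between flavonoids, which include flower pigments, and the monolignols that build lignin. On the lignin side HCT (hydroxycinnamoyl transferase) transfers the coumaroyl group. C3H (coumarate 3-hydroxylase), CCoAOMT (caffeoyl-CoA O-methyltransferase) and F5H (ferulate 5-hydroxylase) decorate the ring. CCR (cinnamoyl-CoA reductase) and CAD (cinnamyl alcohol dehydrogenase) reduce the side chain. Laccases, which are copper oxidases of the cell wall, oxidise the finished monolignols so that they polymerise. By these names the members included 22 PAL, 4 C4H, 26 4CL, 12 HCT, 2 C3H, 9 CCoAOMT, 2 F5H, 2 CCR, 16 CAD and 49 laccase unigenes, and 2 unigenes whose match was a serotonin hydroxycinnamoyl transferase were left unclassed. The names are those of database matches. Of the 26 4CL unigenes, 9 matched proteins named 4CL-like or 4CL family, and 2 of the 12 HCT unigenes matched an anthocyanin acyltransferase.

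Members were 153 to 1815 bp long with a median of 347 bp. They matched 128 different database proteins, and 57 members shared their best match with at least 1 other member, so that fragments of one transcript and separate gene copies could not be told apart. Libraries held 5.4e+06 to 6.3e+06 reads, and the share of reads on members ranged from 0.196% in ventral petals to 0.430% in leaves. In reads per 1e+06 library reads (RPM) this was 1960 (95% exact Poisson interval 1924 to 1997) in ventral petals and 4296 (4241 to 4352) in leaves. All intervals cover counting error only. Of the 161 members, 136 had at least 100 reads over the 8 libraries, 118 were read in all 8 and 4 in 1 library only. The median member was covered by reads over 81.0% of its length in stamens and 92.4% in dorsal petals, the lowest and highest organs. Organ labels were checked with marker names. Light-harvesting chlorophyll a/b binding unigenes (11) summed to 6432 RPM in leaves and 58.1 in roots. The petal and stamen identity genes PISTILLATA and APETALA3 (2 unigenes) summed to 148 to 220.1 RPM in the petals and stamens and to at most 4.78 elsewhere. AGAMOUS (2 unigenes) summed to 82.7 in stamens and 69.5 in carpels and to at most 3.34 elsewhere. Names with pollen (79 unigenes) were less clean. They summed to 3278 RPM in stamens, 1612 in ventral petals and 1354 in carpels. Dorsal and lateral petals had 920 and 910, and sepals, leaves and roots 654 to 1113. Why ventral petals stood above the other petal types on this list was not tested. No root marker fixed for the check was found, since leghemoglobin and Casparian strip names matched nothing and the 1 root-specific name had 0 reads in roots.

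The members differed more between organs than annotated unigenes at large. Among unigenes with at least 100 reads, the median coefficient of variation of RPKM (reads per kilobase of unigene and per 1e+06 library reads, which allows unigenes of different length to be compared) over the 8 organs was 0.825 for the 136 members and 0.587 for 35851 unigenes with an nr match. Leaves were the highest organ for 35 of the 136 members (25.7%, against 12.5% of annotated unigenes) and dorsal petals for 23 (16.9% against 9.55%). Roots were highest for 22 (16.2% against 20.7%), carpels for 19 (14.0% against 17.3%), lateral petals for 13 (9.56% against 11.0%), sepals for 12 (8.82% against 9.04%) and stamens for 10 (7.35% against 13.5%). Ventral petals were highest for only 2 members, the HCT-named Unigene19885 and the F5H-named Unigene9930 (1.47% against 6.34%). In a bulk organ, a lower value can mean fewer cells of a type or less RNA per cell, and these cannot be told apart.

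**Figure D1:**
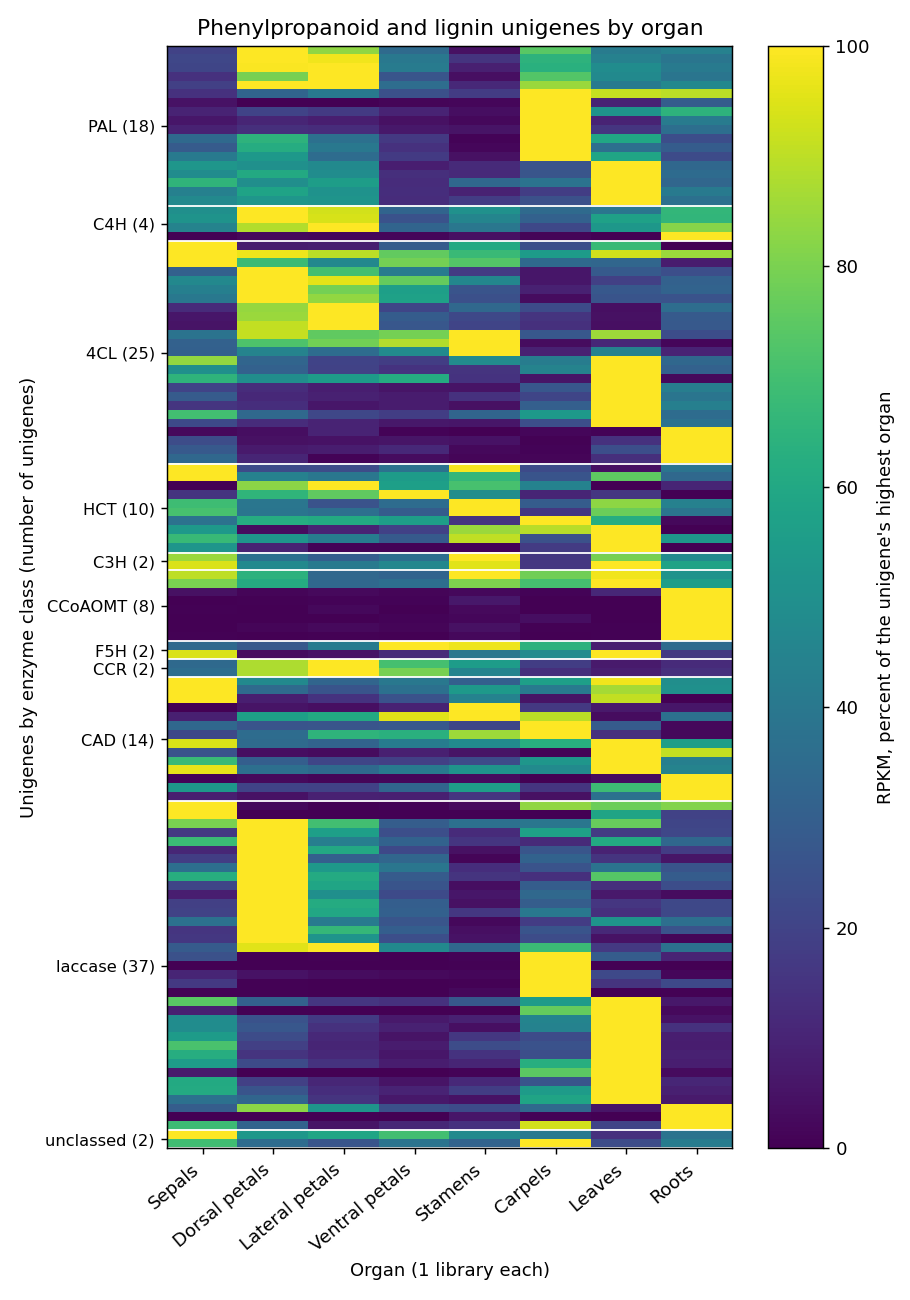
Each line is 1 of 124 members with at least 100 reads, grouped by enzyme class, and each column is 1 organ library; colour gives RPKM as a percent of that unigene's highest organ. Members of one class peaked in different organs: among 37 laccases, 14 were highest in dorsal petals, 12 in leaves and 5 in carpels, and among 8 CCoAOMT unigenes 6 were highest in roots.

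Members enriched in 1 organ were counted with the thresholds of the study. A unigene was called enriched in an organ when its RPKM there was more than 2.0 times that of the highest other organ (the Ratio) and more than 3.8 standard deviations (rounded) above the mean of the others (the Z-score), and downregulated when the Ratio was below 0.5 and the Z-score below -1.5. The 3 petal types were averaged into one category, and the same rule was applied to leaves and roots. Roots stood out, with 27 enriched members, which is 16.8% of the members, against 6.18% of all unigenes and 6.95% of unigenes with an nr match. The 27 had a median Ratio of 17.2, and 22 of them still passed a Ratio of 4.0. Carpels had 12 (7.45%, against 5.61% and 6.62%), petals 10 (6.21%, against 4.95% and 3.82%) and leaves 7 (4.35%, against 4.03% and 4.09%), all close to the background. Stamens had 2 (1.24%, against 3.93% and 4.09%) and sepals none of 161, against 1.20% of all unigenes and 1.20% of those with an nr match. The petal and leaf counts hung on the scaling: with RPKM rescaled by trimmed-mean (TMM) factors petals had 2 and leaves 19, while roots had 26 and carpels 13. The shares of all unigenes given above are without this scaling, so the rescaled counts cannot be set against them.

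Downregulated members were few. There were 8 in carpels (4.97%, against 17.5% of all unigenes), 7 in stamens (4.35%, against 5.39%), 7 in roots (4.35%, against 4.29%), 5 in leaves (3.11%, against 8.39%), 4 in petals (2.48%, against 0.872%) and 1 in sepals (0.621%, against 0.692%). The 7 in stamens held 5 PAL unigenes, and the 8 in carpels held 4 4CL unigenes and both C3H unigenes. In all, 58 members were enriched in some category, 29 were downregulated in some category and 75 had neither call. These totals over categories have no counterpart here for all unigenes, so they cannot be set against a background.

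**Figure D2:**
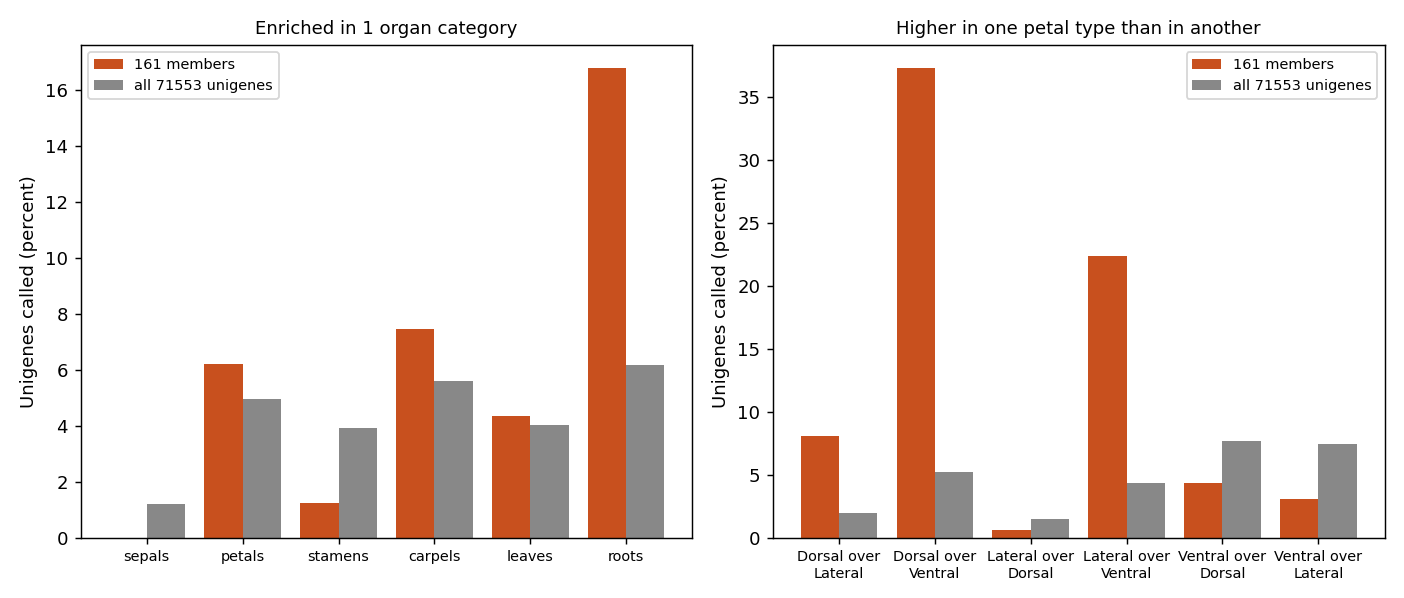
Bars give the percent of the 161 members (orange) and of all 71553 unigenes (grey) that were called, in the left panel as enriched in 1 organ category and in the right panel as at least 2.0 times higher in one petal type than in another. Members exceeded all unigenes most clearly in roots (16.8% against 6.18%) and for dorsal over ventral petals (37.3% against 5.21%).

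PAL, the entry enzyme, was most abundant in carpels, leaves, and dorsal and lateral petals, and least in stamens. The 22 PAL unigenes took 1161 RPM (1133 to 1190) in carpels, 827 (803 to 852) in leaves, 681 (659 to 702) in dorsal petals, 605 (586 to 626) in lateral petals, 586 (567 to 606) in roots, 426 (410 to 442) in sepals, 212 (200 to 224) in ventral petals and 133 (124 to 143) in stamens. Lateral petals and roots were neighbours whose intervals overlapped. Carpels were 8.71 times stamens (8.06 to 9.42). In summed RPKM carpels and leaves were nearly level, with a log2 ratio of 0.071 that became -0.017 under TMM scaling. Different PAL unigenes carried these levels. Unigene62850, the PAL member of highest mean RPKM, had 203 RPKM in sepals, 225, 222 and 54.4 in dorsal, lateral and ventral petals, 76.7 in stamens, 107 in carpels, 430.0 in leaves and 158 in roots, so that leaves were highest and ventral petals lowest. Unigene39916 (123 RPKM in sepals, 117, 111 and 19.3 in dorsal, lateral and ventral petals, 28.0 in stamens, 60.0 in carpels, 233 in leaves and 78.1 in roots) followed the same pattern, with a Pearson r of 0.993 to Unigene62850 over the 8 organs. Unigene39916 and Unigene50174 (r = 0.990) were the 2 members most like Unigene62850.

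Carpels were the highest organ for 8 of the 18 PAL unigenes with at least 100 reads. Unigene590, 1448 bp long, held 2663 of the 6316 PAL reads in carpels and 18.4% of the summed RPKM there. It had 338 RPKM in carpels, 122 in roots and 52.5 in leaves, with 32.7 in sepals, 45.2, 42.8 and 21.5 in dorsal, lateral and ventral petals and 18.3 in stamens. Carpels were 2.77 times roots (95% exact binomial interval 2.57 to 2.98), and Unigene590 was enriched there. Unigene5751 and Unigene37782 were the other PAL unigenes enriched in carpels, which made 3 of 22 PAL unigenes, against 5.61% of all unigenes. Unigene37782, named after its values were seen, had 254 reads in carpels, 79 in roots and 0 to 25 in the other organs. A further pattern was that of Unigene21048, with 215 and 216 RPKM in dorsal and lateral petals, 89.7 in ventral petals, 137 in carpels, 105 in leaves, 88.9 in roots, 45.3 in sepals and 18.9 in stamens. It was called downregulated in stamens. Roots had 3 enriched PAL unigenes of 22, against 6.18% of all unigenes. These 3 (Unigene46737, Unigene47141 and Unigene46421) had only 29 to 32 reads in roots.

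C4H acts next. Unigene29500 had 662 RPKM in dorsal and 748 in lateral petals, 612 in roots, 395 in leaves, 334 in sepals, 295 in stamens, 240.3 in ventral petals and 161 in carpels. Dorsal petals, lateral petals and roots thus formed the high group, and carpels were lowest, where the unigene was called downregulated. Unigene47618 and Unigene41439 were the members most like it (r = 0.943 and 0.918), with 203 and 162 RPKM in dorsal petals and 50.7 and 52.4 in ventral petals. The remaining C4H unigene, Unigene17913, had 73.8 RPKM in roots and 0.222 to 3.32 in the other organs, and was enriched in roots 22.3-fold over stamens (13.3 to 40.2).

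The 26 4CL unigenes peaked in different organs. Of the 25 with at least 100 reads, 8 were highest in leaves, 4 in dorsal petals and 3 in lateral petals. A further 4 were highest in roots, 3 in sepals and 3 in stamens. Unigene27991 had 215, 151 and 90.0 RPKM in dorsal, lateral and ventral petals, 66.3 in sepals, 60.6 in leaves, 51.8 in roots, 37.2 in stamens and 12.9 in carpels. It was enriched in petals, although its database match was weak (E-value 8e-06). Unigene65366 had the same order at lower values (140.3, 118 and 80.1 RPKM in dorsal, lateral and ventral petals, 56.0 in sepals, 36.7 in leaves, 36.0 in roots, 34.0 in stamens and 4.48 in carpels), with r = 0.978 to Unigene27991. Its Ratio of 2.01 lay just over the threshold. Unigene52697, with r = 0.984, was the member most like Unigene27991.

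In leaves, Unigene20303 reached 209.8 RPKM, against 105 in sepals, 93.7 in carpels, 65.2 in roots, 64.8, 41.6 and 30.9 in dorsal, lateral and ventral petals and 31.2 in stamens, a Ratio of 2.00 with an interval of 1.56 to 2.58. Unigene55743 had 197 RPKM in leaves, 85.0 in roots, 59.4 in carpels, 30.4 in sepals, 25.5, 11.8 and 14.7 in the dorsal, lateral and ventral petals and 9.14 in stamens, 2.32 times higher in leaves than in roots (1.95 to 2.77). Both were among the 5 of 26 4CL unigenes enriched in leaves, against 4.03% of all unigenes. Unigene44462 went another way, with 169 RPKM in stamens, 149.9, 133 and 122 in ventral, lateral and dorsal petals, 52.7 in sepals, 19.0 in leaves, 5.53 in carpels and 3.22 in roots. Unigene69287, a 4CL-like protein, was enriched in stamens at 24.0 RPKM, against 2.21 to 11.5 in the other organs, a Ratio of 2.09 (1.54 to 2.85). Summed over the class, 4CL ranged from 764 RPM (741 to 788) in leaves to 296 (282 to 311) in carpels. Gene ontology terms for jasmonic acid metabolism were attached to 7 members, all of them 4CL unigenes.

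HCT transfers the coumaroyl group to shikimate, on which C3H then works. Summed HCT was highest in stamens, at 316 RPM (301 to 331), and lowest in roots, at 101 (93.2 to 110), although in summed RPKM leaves passed stamens under TMM scaling (log2 ratio of stamens to leaves 0.21 before and -0.16 after). A further 29 unigenes outside the members carried hydroxycinnamoyl transferase names, some of them of related acyltransferases, and with these added leaves, at 715 RPM, were above stamens, at 632. Unigene19885 had 346, 262 and 227 RPKM in ventral, lateral and dorsal petals, 170.4 in stamens, 55.0 in leaves, 52.0 in sepals, 36.0 in carpels and 1.12 in roots. It was one of the few members with ventral petals on top and roots nearly empty. Its database match was weak (153 bp, E-value 6e-06), so its HCT name is uncertain. Unigene16848 and Unigene19702 matched the same protein but had unlike profiles (r = -0.08 and -0.43 to Unigene19885). Unigene40165 (192 RPKM in stamens, 159 in leaves, 132 in sepals, 84.2 in roots, 75.1, 48.8 and 67.9 in dorsal, lateral and ventral petals and 55.9 in carpels) and Unigene39255 (160.0 in stamens, 177 in leaves, 119 in sepals, 94.0 in roots, 92.2, 74.4 and 50.5 in dorsal, lateral and ventral petals and 43.8 in carpels) were instead high in stamens, leaves and sepals. The 2 C3H unigenes shared that profile. Unigene62615 had 211 RPKM in stamens, 179 in sepals, 168 in leaves, 101 in roots, 77.4, 62.8 and 75.9 in dorsal, lateral and ventral petals and 34.5 in carpels. Unigene62811 ranged from 27.4 RPKM in carpels to 168 in leaves (r = 0.969 between the 2), and both were called downregulated in carpels. The member most like Unigene62615 was the HCT unigene Unigene59623 (r = 0.975).

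The methyltransferase CCoAOMT held 2 kinds of profile. Unigene36453, the most abundant, was present everywhere, with 846 RPKM in leaves, 681 in stamens, 674 in sepals, 596 in carpels, 521 in dorsal petals, 474 in roots, 307 in ventral petals and 286 in lateral petals. Unigene53116 followed it (r = 0.961), at 239 RPKM in stamens, 233 in leaves, 215 in sepals, 187 in carpels, 153, 80.5 and 76.4 in dorsal, lateral and ventral petals and 123 in roots, and both were called downregulated in petals. The other 7 of the 9 CCoAOMT unigenes were all enriched in roots, against 6.18% of all unigenes.

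Of these 7, Unigene20441 had 344 RPKM in roots, 21.6 in stamens, 3.43, 3.29 and 2.24 in ventral, lateral and dorsal petals, 1.03 in sepals and 0 reads in carpels and leaves, 15.9 times higher in roots than in stamens (9.89 to 27.2). Unigene55117 had 160.4 RPKM in roots, 7.41 in stamens, 4.05, 2.30 and 1.88 in lateral, dorsal and ventral petals, 0.991 in leaves, 0.975 in carpels and 0 reads in sepals, a 21.6-fold difference from stamens (12.9 to 39.1). The remaining 5 (Unigene14985, Unigene9233, Unigene31207, Unigene41195 and Unigene22817) had 37 to 399 reads in roots, and for Unigene22817 all 37 of its reads were from roots. A count of 0 allows up to 3 reads, so that absence from the other organs was not shown. Unigene20441 and Unigene53116 matched the same database protein but had unlike profiles (r = -0.23). Summed over the class, CCoAOMT reached 404 RPM in roots (387 to 420), 1.47 times those of leaves (1.37 to 1.57). This sum covers only the spellings searched, and in summed RPKM the log2 ratio of roots to leaves moved from 0.454 to -0.029 under TMM scaling. Unigene36453 made up 31.7% of the summed RPKM in roots and 71.2% to 78.6% in the other organs.

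**Figure D3:**
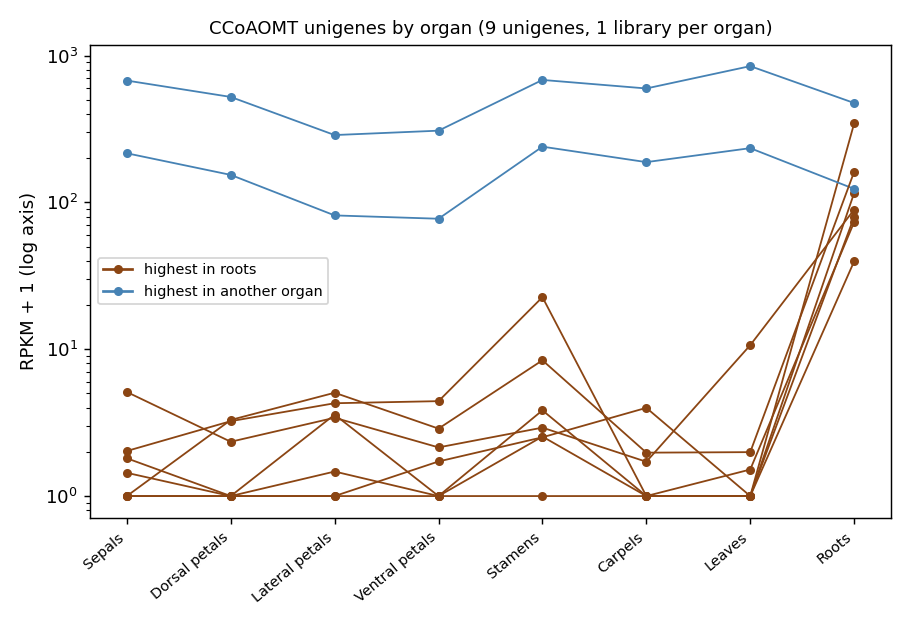
Lines give RPKM + 1 on a log axis for the 9 CCoAOMT unigenes across the 8 organ libraries, brown for unigenes highest in roots and blue for the rest. The 7 unigenes highest in roots lie far below the other 2 in every aerial organ, while Unigene36453 lies between 286 and 846 RPKM in all organs.

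F5H, which leads to syringyl lignin, was weakly read under the names searched. Unigene9930 had 54.9 RPKM in ventral petals, 53.5 in stamens, 35.4 in carpels, 22.5 and 15.2 in lateral and dorsal petals, 19.3 in roots, 18.7 in sepals and 4.67 in leaves, where it was called downregulated. Unigene57228 had 24.8 RPKM in leaves, 23.5 in sepals, 12.0 in carpels, 9.89 in stamens, 4.14 in roots and 0.837, 1.23 and 3.00 in dorsal, lateral and ventral petals. The 2 were therefore high in different organs. The 2 CCR unigenes were instead alike (r = 0.989) and highest in petals. Unigene34636 had 247, 217 and 175 RPKM in lateral, dorsal and ventral petals, 137 in stamens, 84.5 in sepals, 44.4 in carpels, 30.8 in roots and 17.7 in leaves. Unigene64902 ran from 12.4 RPKM in leaves to 147 in lateral petals, with a weak match (E-value 8e-08) to the Eucalyptus enzyme, and Unigene34636 matched a protein described only as related to CCR.

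CAD makes the monolignols. Unigene35769 had 353 RPKM in leaves, 340 in sepals, 182 in stamens, 169 in carpels, 158 in roots and 129, 121 and 144 in dorsal, lateral and ventral petals. Unigene52230 had the same 2 organs at the top in the other order, with 201 RPKM in sepals and 174 in leaves, and ranged from 52.4 to 109 elsewhere. Unigene65483 was the reverse, with 177 RPKM in stamens, 168, 107 and 100.5 in ventral, lateral and dorsal petals, 159 in carpels, 65.5 in roots, 15.6 in sepals and 6.19 in leaves, and was called downregulated in sepals and leaves. Other CAD unigenes were called enriched in 1 organ. Unigene6091 (1125 bp) had 90.9 RPKM in stamens, 15.2 in carpels, 8.82, 4.62 and 3.62 in ventral, dorsal and lateral petals, 6.15 in leaves, 5.63 in roots and 0.283 in sepals, 5.98 times higher in stamens than in carpels (4.79 to 7.53). Unigene25007 was enriched in carpels at 301 RPKM, with 100.3 in sepals, 86.4 in leaves, 78.1, 79.5 and 83.0 in dorsal, lateral and ventral petals, 62.4 in stamens and 5.94 in roots. In roots Unigene15559, named after its values were seen, had 765 of its 859 reads, 29.2 times its RPKM in leaves (19.5 to 45.9).

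**Figure D4:**
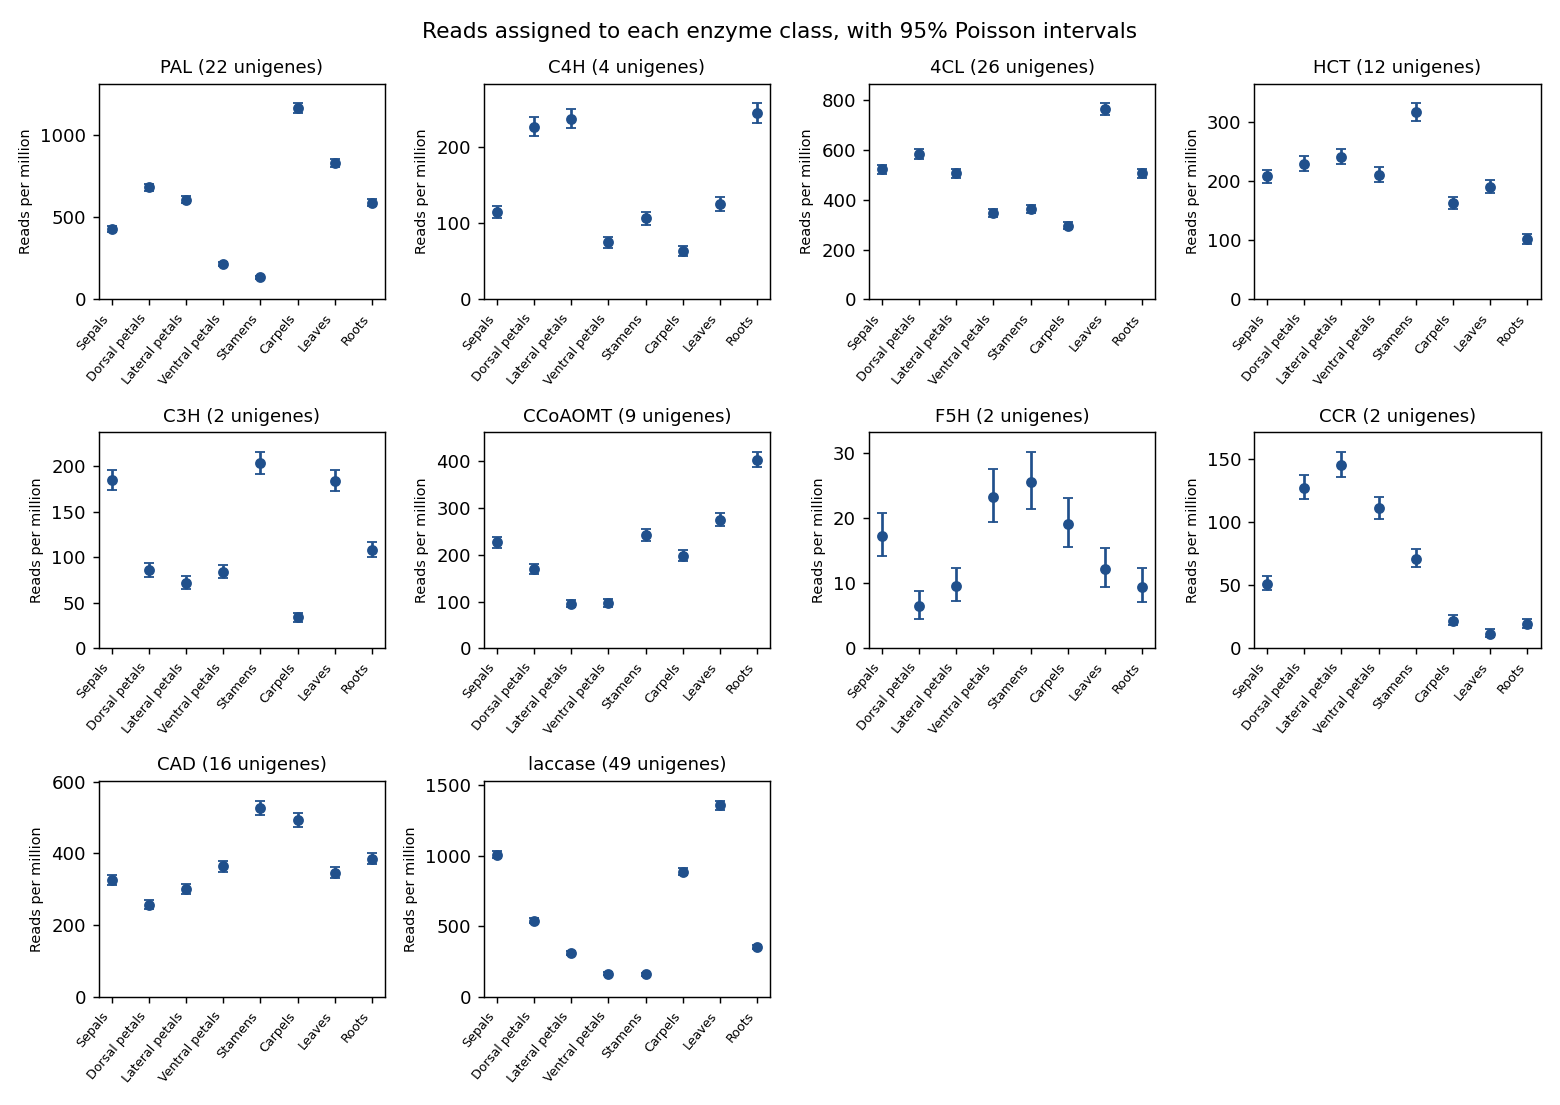
Points give RPM for each of 10 enzyme classes in the 8 organ libraries, with 95% exact Poisson intervals that cover counting error only; every vertical axis starts at 0. PAL ranged between 133 in stamens and 1161 in carpels and laccase between 161 in stamens and 1358 in leaves, while CCoAOMT had its highest point in roots, at 404.

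Several leading members were most like members of another class over the 8 organs. The CAD unigene Unigene35769 was most like the 4CL unigene Unigene10679 and the F5H unigene Unigene57228 (r = 0.971 and 0.969), all of them highest in leaves and next in sepals. The HCT unigene Unigene19885 was most like the CCR unigene Unigene64902 and the 4CL unigene Unigene44462 (r = 0.900 and 0.875). After Unigene53116, Unigene10679 was also the member most like the CCoAOMT unigene Unigene36453 (r = 0.901), and after Unigene64902 the 4CL-like Unigene31249 was most like the CCR unigene Unigene34636 (r = 0.949). The F5H unigene Unigene9930 was most like the CAD unigenes Unigene65483 and Unigene5760 (r = 0.875 and 0.723). These correlations are over 8 libraries that every unigene shares and are descriptions only.

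Laccases were the class with the most unigenes. Their 49 unigenes took 1358 RPM in leaves (1327 to 1389), 1007 in sepals (982 to 1032), 886 in carpels (862 to 912), 541 in dorsal petals (522 to 560), 352 in roots (337 to 368), 309 in lateral petals (295 to 324), 165 in ventral petals (154 to 176) and 161 in stamens (151 to 172). Ventral petals and stamens had overlapping intervals. In summed RPKM the order differed, with 2499 in leaves, 1804 in carpels, 1764 in dorsal petals and 1668 in sepals. The leaf and sepal group was led by Unigene51172, with 389 RPKM in leaves, 277 in sepals, 98.4 in carpels, 91.1 in stamens, 74.1, 40.8 and 29.4 in dorsal, lateral and ventral petals and 30.6 in roots. Unigene62616 and Unigene66873 were most like it (r = 0.993 and 0.987). Unigene38082 had 324 RPKM in leaves, 178 in sepals, 74.9, 37.1 and 17.0 in dorsal, lateral and ventral petals, 73.9 in carpels, 52.8 in stamens and 27.7 in roots.

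A dorsal petal group was led by Unigene52259, which had 189, 113 and 57.8 RPKM in dorsal, lateral and ventral petals, 75.8 in carpels, 40.7 in roots, 37.3 in sepals, 30.9 in stamens and 26.1 in leaves. Of the 37 laccases with at least 100 reads, 14 were highest in dorsal petals, 1 in lateral petals and none in ventral petals. As a category, petals had 6 enriched laccases of 49, against 4.95% of all unigenes. These 6 (Unigene56466, Unigene50538, Unigene41728, Unigene26236, Unigene9309 and Unigene6956) belonged to this group, with Unigene26236 at 157, 94.5 and 33.8 RPKM in dorsal, lateral and ventral petals.

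Other laccases, named after their values were seen, had next to no reads in petals and stamens. Unigene71591, 1815 bp long and matched to laccase 11 of Arabidopsis, had 2431 reads in sepals, 1210 in leaves and 444 in roots, but 3, 0 and 1 in dorsal, lateral and ventral petals, 2 in stamens and 4 in carpels. Its sepals to leaves ratio of 1.71 (1.60 to 1.84) kept it from being called enriched. It held 2431 of the 6325 laccase reads in sepals. Unigene13901 and Unigene66760 were high in leaves (205 and 149.6 RPKM) and carpels (157 and 112), with 0 to 1 read in each petal type. Carpels had 7 enriched laccases of 49, against 5.61% of all unigenes. Among them was Unigene38672, with 183 reads in carpels, 1 in stamens and 0 in the other organs (145 RPKM against 0.803, a ratio of 181 with an interval of 32.0 to 7175). Unigene8841 had 154 carpel reads and at most 3 in any other organ. Roots had 3 enriched laccases of 49, near the 6.18% of all unigenes enriched there. Among the 3, Unigene14886, whose match was named only putative laccase-17, had 221 of 236 reads in roots. A gene ontology term for lignin was attached to 19 members, all of them laccases.

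Many members differed between the petal types of the flower. A unigene was taken as higher in one petal type when its RPKM was at least 2.0 times that of the other and the exact binomial interval of the ratio excluded 1. From dorsal to ventral petals 60 members were higher in dorsal (37.3%, against 5.21% of all unigenes) and 7 in ventral (4.35%, against 7.70%). Between lateral and ventral petals 36 were higher in lateral (22.4%, against 4.32%) and 5 in ventral (3.11%, against 7.43%). Dorsal and lateral petals were closer, with 13 higher in dorsal (8.07%, against 1.96%) and 1 in lateral (0.621%, against 1.49%). Among unigenes with at least 100 reads, 56 of 136 members (41.2%) were higher in dorsal than in ventral petals, against 6.16% of unigenes with an nr match, and the median ratio of dorsal to ventral RPKM was 2.00 for members and 1.04 for those unigenes.

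**Figure D5:**
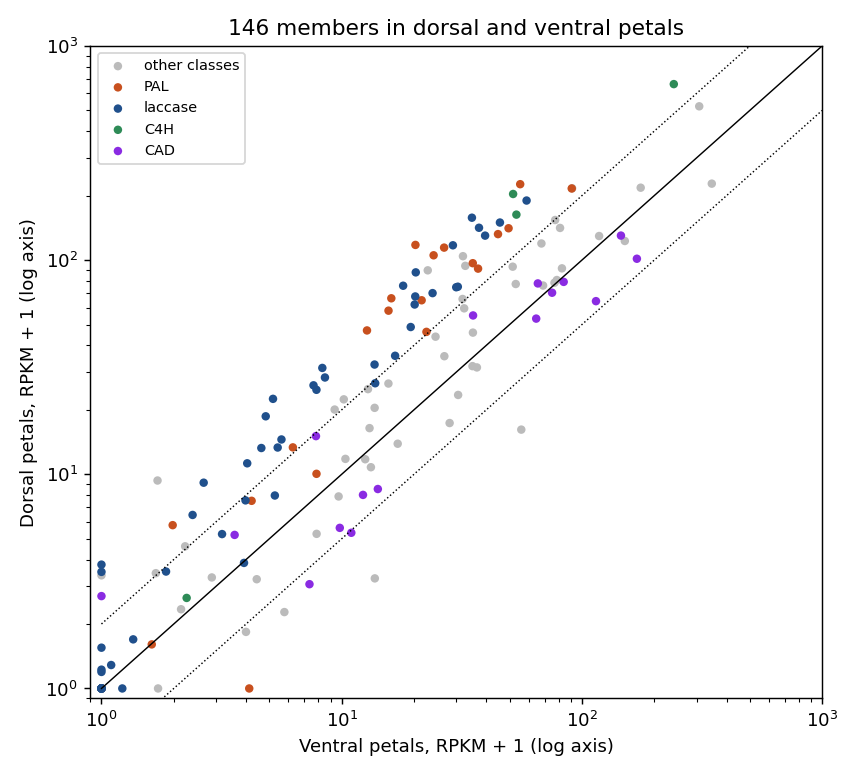
Points are 146 members by RPKM + 1 in ventral (horizontal) and dorsal petals (vertical), both on log axes, with a solid line of equal values and dotted lines at 2.0 times. PAL (orange), C4H (green) and laccase (dark blue) points lie mostly above the upper dotted line, with 16 of 22, 3 of 4 and 29 of 49 counted as higher in dorsal petals, while CAD points lie on both sides of equality.

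The classes differed in how far dorsal and ventral petals were apart. PAL reads were 3.21 times higher in dorsal than in ventral petals (3.01 to 3.43), C4H reads 3.04 times (2.72 to 3.40) and laccase reads 3.28 times (3.05 to 3.53). By unigene, 16 of 22 PAL, 3 of 4 C4H and 29 of 49 laccase unigenes were higher in dorsal petals, and none was higher in ventral petals. For the PAL unigene Unigene62850 the ratio was 4.14 (3.50 to 4.93), and for Unigene39916 it was 6.06 (3.99 to 9.55). For the laccase Unigene52259 it was 3.26 (2.63 to 4.08). Member reads of 4CL were 1.68 times higher in dorsal petals (1.59 to 1.78), with 7 of 26 unigenes higher in dorsal and 1 in ventral petals. CCoAOMT member reads were 1.77 times higher (1.59 to 1.96), which became 3.88 times (3.62 to 4.16) with the 4 CCoAOMT unigenes of other spellings described below. HCT (1.09, 1.01 to 1.18), C3H (1.02, 0.900 to 1.16) and CCR (1.15, 1.03 to 1.28) were within 1.3 times by their intervals. CAD reads were lower in dorsal petals, at 0.708 times (0.662 to 0.758), and the 2 F5H unigenes were lower at 0.276 times (0.186 to 0.401) on 37 reads against 131. With 5 F5H unigenes of other spellings added, the F5H ratio was 1.03 (0.888 to 1.20), so that its direction holds only for the 2 members. Laccases also separated the dorsal from the lateral petals, at 1.75 times (1.65 to 1.85), whereas PAL (1.12, 1.07 to 1.18) and C4H (0.959, 0.888 to 1.03) hardly did. Members with the order dorsal, lateral, ventral made up 40.4% of the 136, against 22.3% of unigenes with an nr match.

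Other lists of the pathway gave context for the members. For the counts below, the enriched shares of all unigenes were 4.95% in petals, 3.93% in stamens, 5.61% in carpels, 4.03% in leaves and 6.18% in roots. Chalcone synthase, the first step towards flavonoids, had 26 unigenes summing to 1082, 1014 and 374 RPM in dorsal, lateral and ventral petals, 692 in carpels, 533 in roots, 160 in stamens, 60.2 in leaves and 49.2 in sepals, with 11 enriched in petals. Dorsal and lateral petals were thus above ventral petals, as for PAL, but leaves were near the bottom. Class III peroxidases, which oxidise monolignols alongside laccases, had 119 unigenes, 55 of them enriched in roots, with 8213 RPM in roots and 1149 to 3885 elsewhere. Of 15 lignan reductase unigenes 7 were enriched in roots. Dirigent proteins, which steer the coupling of monolignol radicals, had 17 unigenes with 1325 RPM in carpels and 29.1 to 333 elsewhere, 7 of them enriched in carpels and 5 in roots. The 33 unigenes of the shikimate route, which supplies phenylalanine, were fairly even as a sum, at 625 to 927 RPM. Of these, 4 were enriched in carpels (against 5.61% of all unigenes), 1 in leaves and none in the other categories. Downregulated were 7 in stamens (against 5.39% of all unigenes), 5 in roots (against 4.29%), 2 in petals (against 0.872%) and 2 in carpels (against 17.5%). S-adenosylmethionine synthetases, which supply methyl groups, had 6 unigenes, 3 of them enriched in stamens. Secondary wall names (27 unigenes) summed to 1485 RPM in sepals and 1032 in stamens and to 328 to 630 elsewhere, and their part in the results was not tested.

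The search words missed some spellings of the same enzymes, which were found after the values were seen. Under "caffeoyl CoA", "cinnamoyl CoA reductase", "cinnamate-4-hydroxylase" and the like there were 4 further CCoAOMT, 9 CCR, 3 C4H, 5 F5H and 10 CAD unigenes outside the 161. The extreme case was Unigene33506, a 206 bp unigene matched to a maize caffeoyl CoA 3-O-methyltransferase, which had 4344, 2584 and 391 RPKM in lateral, dorsal and ventral petals, 84.2 in sepals, 2.71 in stamens and 0 reads in carpels, leaves and roots. This exceeded every member in any organ. Unigene23521, named for CCR, had 504, 457 and 216 RPKM in lateral, dorsal and ventral petals and 13.2 to 114 in the other organs. Both were called enriched in petals. With the other spellings added, summed RPKM was highest in lateral petals for CCoAOMT (4730, against 1551 in roots) and in sepals for F5H (326), where the members alone were highest in roots and stamens. For C4H and CCR lateral petals and for CAD leaves stayed the highest organ in summed RPKM. In RPM the C4H members were instead highest in roots (244, against 236 in lateral petals). The CAD members were highest in stamens in RPM (526, against 347 in leaves). For HCT the highest organ in summed RPKM became leaves (1898, against 1551 in stamens). The class sums given above thus describe the spellings searched and not every unigene of the enzyme.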

How the data were processed

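RNA-seq libraries (Illumina sequencing) of 8 organs of Vicia sativa were analysed, 1 per organ. The authors assembled unigenes with SOAPdenovo and TGICL from reads of all organs and annotated them against nr with an E-value limit. Which program aligned the reads is not stated in the sources used here. As deposited, each organ's table held the count of uniquely assigned reads per unigene, the RPKM computed by the authors from that count, and the percent of the unigene covered by reads. Tables were joined by unigene, with absent unigenes at 0 reads, and RPKM recomputed from counts and library totals equalled the deposited values within rounding. Unigenes read in 1 category alone counted as enriched. Enzyme classes followed the words of the nr description in a fixed order.

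Poisson and binomial intervals (95%, exact) were computed with scipy 1.17.1 in Python 3.11.15, and TMM factors with edgeR 4.0.16. No differential test was run. The calling rules and intervals were run on simulated counts with 200 changed unigenes. The planted changes were far above the Ratio threshold of 2.0, in well-read unigenes with level other organs and Poisson noise only. This checked the code and cannot show how reliable calls near the thresholds are. The text names per class the 3 members of highest mean RPKM, per category the 2 enriched members of highest RPKM with at least 100 reads, and the 2 members most correlated with the leading member of each class. All other unigenes named were chosen after their values were seen. No member had PCR primers listed by the study. The members and lists were chosen with earlier results of these data known. Alternatives were TMM scaling, a minimum of 10 reads, other Ratio thresholds, the Ratio alone and leaving out the leading unigene of a class. No sequence is shown, as none was used here. Members of 1 class count in the totals over all 161 but are not reported here on their own, nor drawn by class.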

Additional observations from a re-analysis of the deposited data

How the results depend on the processing

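No paired analysis was possible because each organ has 1 library, and no library could be left out for the same reason. Requiring at least 10 reads kept every count of enriched or downregulated members within 1.5 times. With RPKM rescaled by TMM factors, which ran from 0.773 in leaves to 1.13 in dorsal petals, enriched members numbered 2 in petals, 1 in stamens and 19 in leaves, and downregulated members 0 in sepals, 3 in carpels and 3 in leaves. With a Ratio threshold of 4.0 or 0.25, enriched members numbered 4 in carpels, 1 in stamens and 0 in both petals and leaves, and 1 was downregulated in petals. With the Ratio alone, downregulated members numbered 129 in stamens, 112 in sepals, 108 in carpels, 107 in roots, 103 in petals and 94 in leaves, since a Ratio below 0.5 only asks that some other organ be higher. The 27 members enriched in roots became 26, 27, 22 and 27 under these 4 alternatives. Shares of all unigenes under these alternatives are not given, so the counts have no background beside them.

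The log2 ratio of summed RPKM between a class's highest organ and the next was small for most classes. Under TMM scaling it moved from 0.071 to -0.017 for PAL (carpels over leaves), 0.23 to 0.77 for 4CL (leaves over dorsal petals), 0.21 to -0.16 for HCT (stamens over leaves), 0.454 to -0.029 for CCoAOMT (roots over leaves), 0.17 to 0.64 for CAD (leaves over sepals) and 0.47 to 0.56 for laccase (leaves over carpels). Without the member of highest mean RPKM it was 0.39 for PAL, -0.10 for C4H (lateral over dorsal petals), 0.43 for 4CL, -0.0002 for HCT, 0.017 for C3H (stamens over sepals), 2.06 for CCoAOMT, 1.72 for F5H (stamens over ventral petals) and 0.31 for laccase. For PAL the member left out was Unigene62850, which was highest in leaves. The PAL sum without the carpel-enriched Unigene590 was not taken, so the place of carpels above leaves was not checked against that unigene. Adding other spellings, an alternative chosen after seeing the data, moved the ratio between the same 2 organs by less than counting error for CCoAOMT, CAD, C4H, F5H and CCR, but the highest organ itself became lateral petals for CCoAOMT and sepals for F5H, and for HCT the ratio of stamens to leaves became -0.29. It moved the ratio of dorsal to ventral petal reads from 1.77 to 3.88 for CCoAOMT, 0.276 to 1.03 for F5H, 1.15 to 1.32 for CCR, 0.708 to 0.774 for CAD and 1.09 to 1.20 for HCT, and left C4H within its interval. Of 34 named unigenes with a TMM value, 30 kept the order of their highest 2 organs, and Unigene40165, Unigene53116, Unigene9930 and Unigene52230, which had near-equal organs, did not. The counts between petal types, rescaled or limited to members with at least 100 reads after seeing the data, stayed within 1.5 times (54 and 56 higher in dorsal than in ventral petals). The cause of these shifts was not tested. Lone libraries and short unigenes limit every value.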
